A study of Rattus norvegicus with 11 samples.

Results

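The genes described here encode 4 IL-6 family cytokines (Il6, Il11, Lif, Osm), 4 of their receptors (Il6r, Il6st, Osmr, Lifr), the transcription factor Stat3 and its feedback inhibitor Socs3. These 10 genes were chosen by symbol from the 24481 genes with read counts, with earlier results of these data known. All 10 also had FPKM values and passed the filter on low counts in every comparison. Against controls, Il6 and Il11 passed it only through the libraries with pancreatitis. RNA of rat ileum was sequenced in 3 groups of SD rats aged 6 to 8 weeks. The control group (3 libraries) received vehicle. The SAP group (4 libraries) had severe acute pancreatitis, made by injecting 3% sodium taurocholate into the pancreatic duct, and received vehicle. The JZL184 group (4 libraries) had the same pancreatitis and received 10 mg/kg JZL184, an inhibitor of the enzyme monoacylglycerol lipase (MAGL), intraperitoneally. The vehicle was a mixture of saline, ethanol and Tween-80, and all rats were killed 24 h after the injection. The injection followed the division into groups, which the study dates to 24 h after surgery. What operation the control rats had is not described further in the sources used here. JZL184 was given only to rats with pancreatitis.

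IL-6 family cytokines bind a receptor chain of their own and then the shared signaling chain that Il6st encodes. The bound receptor activates JAK kinases, which phosphorylate STAT3, and STAT3 then enters the nucleus and induces its target genes. One target is Socs3, whose protein binds the shared chain and JAK kinases and so ends the signal. In the intestine this pathway is known for its part in the acute-phase response, in epithelial repair and in inflammation. The values below are of RNA, so they give neither cytokine protein nor STAT3 phosphorylation.

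Between 26341299 and 33847135 reads lay on genes per library. The counts of control libraries 1 and 2 were almost those of 1 library (chi-square per gene 2.81, against 77.49 to 563.06 for the other 14 pairs of libraries within a group) and were counted as 1 sample, which left n = 2 in the control group, beside n = 4 in the SAP group and n = 4 in the JZL184 group. SAP library 2 had 20 reads on Y-linked genes and 7826 on the rat Xist locus, whereas the other libraries had 1222 to 4665 and at most 56, although the study describes male rats. SAP libraries 1 and 2 also stood apart from SAP libraries 3 and 4 in several of the genes below, so results that rest on them are given with and without them. The labels name intestinal epithelial cells as well as ileum tissue. The epithelial marker Epcam was at 2220 to 3814 FPKM, and the smooth muscle markers Acta2 (82.95 to 266.85 FPKM) and Myh11 (57.34 to 341.16 FPKM) were present in every library, so the samples held more than epithelium. In such whole tissue, fewer cells of a type and less RNA per cell cannot be told apart.

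Of the 10 genes, 4 rose in the JZL184 group relative to controls: Socs3, Il6, Osmr and Il6st, beside 1.02% of all genes called higher. These calls rest on 2 control samples, and all 4 were lost without JZL184 library 2. That of Il6 is a description only, since Il6 passed the filter on low counts through the libraries where it was high. None of the 10 was called between the SAP and control groups or between the JZL184 and SAP groups. Socs3 was, however, 5.59-fold higher under JZL184 than in the SAP group with no overlap between the libraries. In normalized counts, 6.23% of all genes lay above the SAP samples without overlap. A gene was called when edgeR's quasi-likelihood test gave a Benjamini-Hochberg adjusted p below 0.05 over all genes tested, and its level changed by more than 2-fold. The plot of FPKM by library shows all values.

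**Figure D1:**
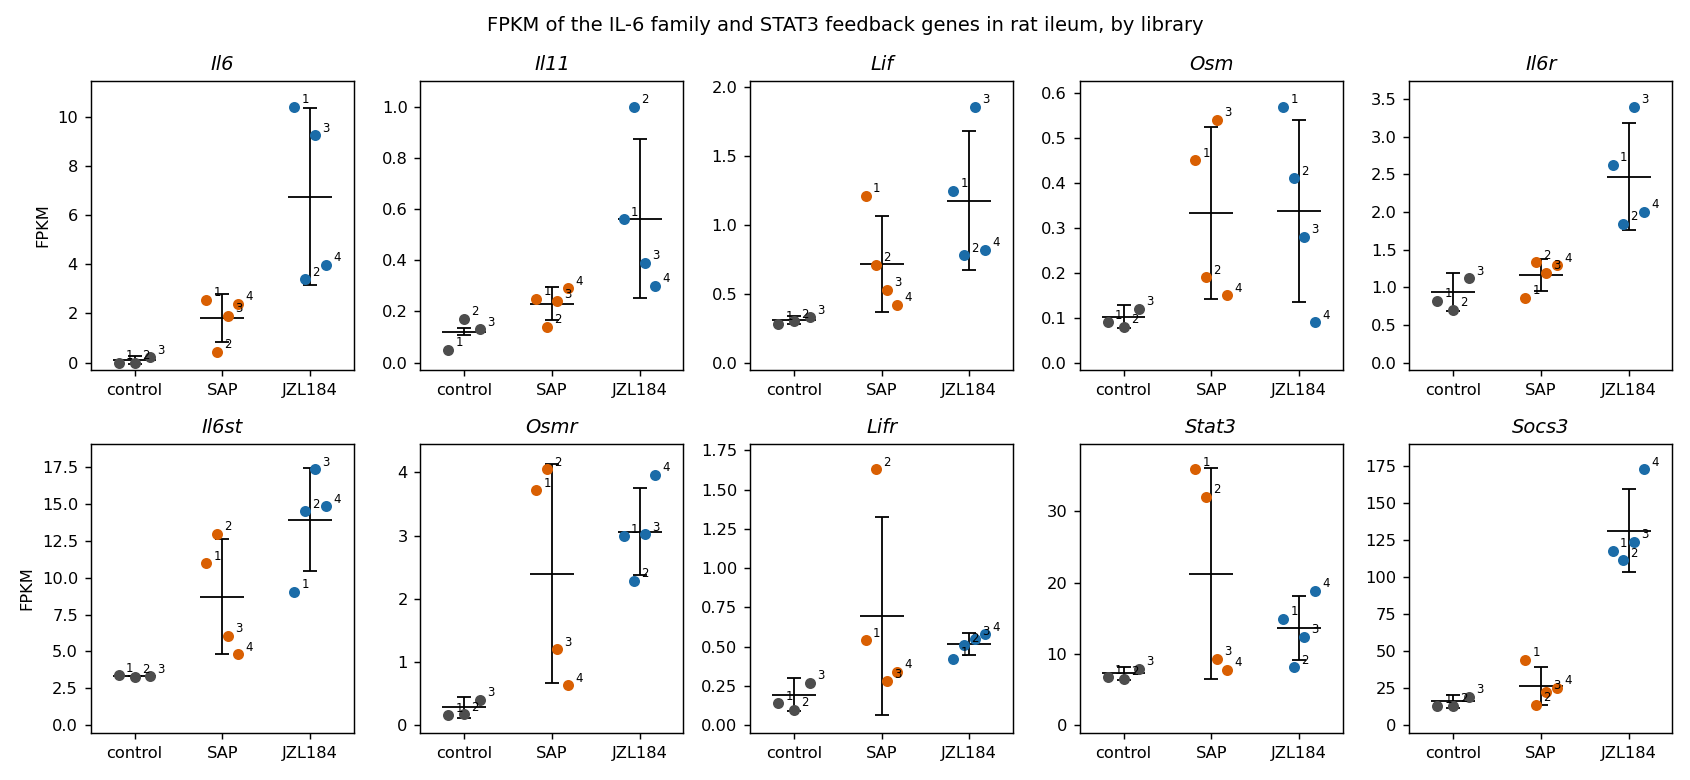
FPKM (linear axes from 0) of the 10 genes in each library, with the library number beside each point. Bars are the mean and SD (control n = 2, with libraries 1 and 2 averaged to 1 sample; SAP and JZL184 n = 4). Socs3 lay between 111.36 and 172.71 FPKM in the JZL184 group and at or below 44.17 FPKM in every other library, while Stat3 was highest in SAP libraries 1 and 2.

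The genes lie on 5 chromosomes in the deposited tables. Il6r, Il6st, Osmr and Lifr are on chromosome 2, Lif and Osm on chromosome 14, Stat3 and Socs3 on chromosome 10, Il6 on chromosome 4 and Il11 on chromosome 1. In the RefSeq annotation of GRCr8, 0 protein-coding genes start between Osm and Lif and 0 between Osmr and Lifr, so both pairs are neighbours, whereas 290 start between Stat3 and Socs3. RefSeq promoter windows, from 250 bases before to 50 bases after a start site, were matched for 8 of the 10 genes. Lif and Osm had no window. The windows of Il6, Il11 and Osmr are shown because they alone held one of the 4 motifs searched on both strands, which were a STAT motif (TTCNNNGAA), an NF-kB motif (GGG and TTTCC with 2 bases of any kind between them), an AP-1 motif (TGANTCA) and a cAMP response element (CRE, TGACGTCA). Each is printed 5′ to 3′ on the strand of the gene, with the motifs in capitals.
Il6, GRCr8 chr4:5894526-5894825, minus strand: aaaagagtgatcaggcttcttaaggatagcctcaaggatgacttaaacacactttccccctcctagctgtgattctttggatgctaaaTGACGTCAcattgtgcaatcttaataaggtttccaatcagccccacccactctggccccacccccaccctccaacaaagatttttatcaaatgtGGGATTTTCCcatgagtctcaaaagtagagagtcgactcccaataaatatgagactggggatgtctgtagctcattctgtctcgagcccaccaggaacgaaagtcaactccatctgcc
Il11, GRCr8 chr1:78098372-78098671, plus strand: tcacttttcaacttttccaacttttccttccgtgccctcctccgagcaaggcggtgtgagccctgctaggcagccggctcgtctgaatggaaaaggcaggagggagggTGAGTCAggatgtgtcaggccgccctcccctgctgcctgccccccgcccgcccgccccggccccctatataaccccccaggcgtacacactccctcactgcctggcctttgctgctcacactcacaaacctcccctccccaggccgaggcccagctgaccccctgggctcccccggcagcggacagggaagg
Osmr, GRCr8 chr2:57688512-57688811, minus strand: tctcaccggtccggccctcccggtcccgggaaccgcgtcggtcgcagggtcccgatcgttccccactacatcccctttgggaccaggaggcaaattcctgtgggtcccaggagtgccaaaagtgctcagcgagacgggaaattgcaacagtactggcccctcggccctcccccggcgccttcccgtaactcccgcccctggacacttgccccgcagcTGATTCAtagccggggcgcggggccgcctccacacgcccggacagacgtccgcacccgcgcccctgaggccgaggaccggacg
In the Il6 window, the CRE lay at positions -162 to -155 and the NF-kB motif at -68 to -59, counted from the start site. The AP-1 motif lay at -142 to -136 in the Il11 window and at -33 to -27 in the Osmr window. Of 33469 RefSeq promoter windows of this length, 1.83% held the CRE, 1.53% the NF-kB motif, 7.33% the AP-1 motif and 8.87% the STAT motif. The windows of Il6r, Il6st, Lifr, Stat3 and Socs3 held none of these letters. Start sites of the Stat3, Osmr, Socs3, Il6r, Il6st and Lifr windows lay 154, 241, 1207, 1496, 11360 and 11602 bases inside the gene. The AP-1 motif of Osmr thus lay downstream of the outermost start of that gene. A match is a description of the letters, not of a bound site.

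Il6 encodes the cytokine that gives the family its name. Control libraries 1 and 2 held 0 Il6 reads, which allows up to 0.096 and 0.09 FPKM, and control library 3 held 7 reads, or 0.21 FPKM. In the SAP group, Il6 was at 2.54, 0.43, 1.89 and 2.38 FPKM in libraries 1 to 4. In the JZL184 group it was at 10.41, 3.38, 9.24 and 3.97 FPKM. The groups did not overlap in either step, and JZL184 libraries 1 and 3 were more than 2-fold above JZL184 libraries 2 and 4. In both comparisons with controls, Il6 passed the filter on low counts only through the libraries with pancreatitis, where it was high. Its tests against controls are therefore given as a description. On the read counts, the JZL184 group exceeded the control group by 6.18 ± 1.12 log2 units (standard error) with an edgeR adjusted p of 0.0372. This difference rests on 7 control reads. Without control libraries 1 and 2 it was 4.96 ± 0.96, and without control library 3 no control read remained, so the size of the fold is not fixed by these data. Relative to controls, the SAP group differed by 4.19 ± 1.30 (adjusted p = 0.459), and by 3.02 ± 1.24 without control libraries 1 and 2. Between the JZL184 and SAP groups, the log2 fold change was 1.99 ± 0.57 (adjusted p = 0.12), and the exact two-sided permutation test of FPKM gave p = 0.0286, the smallest that 4 against 4 allows. SAP library 2 held the lowest Il6 level of the 8 libraries with pancreatitis, and without SAP libraries 1 and 2 the difference between the JZL184 and SAP groups was 1.66 ± 0.51.

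Il11, a cytokine of the family that acts on stromal and epithelial cells, was rare. It was at 0.05, 0.17 and 0.13 FPKM in the control libraries, at 0.25, 0.14, 0.24 and 0.29 FPKM in SAP libraries 1 to 4, and at 0.56, 1.0, 0.39 and 0.30 FPKM in JZL184 libraries 1 to 4. These levels rest on 4 to 82 reads. Each JZL184 library lay above each SAP library, by as little as 0.30 against 0.29 FPKM. The log2 fold change between those groups was 1.46 ± 0.51 (edgeR adjusted p = 0.164), with p = 0.0286 in the exact permutation test. Against the control group it was 2.25 ± 0.68 in the JZL184 group (adjusted p = 0.0966) and 0.82 ± 0.52 in the SAP group (adjusted p = 0.475). In both comparisons with controls, Il11 too passed the filter on low counts only through the libraries with pancreatitis. These values against controls are therefore a description.

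Lif, which encodes leukemia inhibitory factor, was at 0.28, 0.30 and 0.33 FPKM in the control libraries. It was at 1.21, 0.71, 0.53 and 0.42 FPKM in the SAP libraries and at 1.25, 0.78, 1.86 and 0.82 FPKM in the JZL184 libraries. All libraries with pancreatitis were above all control libraries, while SAP and JZL184 libraries overlapped. The log2 fold change against the control group was 1.02 ± 0.46 in the SAP group (adjusted p = 0.459) and 1.87 ± 0.43 in the JZL184 group (adjusted p = 0.0624), and 0.88 ± 0.38 between the JZL184 and SAP groups (adjusted p = 0.217). Without SAP libraries 1 and 2, the SAP and control groups differed by 0.56 ± 0.37 and the JZL184 and SAP groups by 1.33 ± 0.41. As for Il6, JZL184 libraries 1 and 3 held the highest levels of that group.

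Osm encodes oncostatin M, which is made mainly by leukocytes. It was the lowest of the 10 genes by mean FPKM in the control and JZL184 groups. It was at 0.09, 0.08 and 0.12 FPKM in the control libraries, at 0.45, 0.19, 0.54 and 0.15 FPKM in the SAP libraries and at 0.57, 0.41, 0.28 and 0.09 FPKM in the JZL184 libraries. JZL184 library 4 lay at the control level, and the SAP and JZL184 groups spanned nearly the same range. On the log2 scale, the difference was 1.51 ± 0.66 between the SAP and control groups (adjusted p = 0.459), 1.67 ± 0.74 between the JZL184 and control groups (adjusted p = 0.192), and 0.19 ± 0.59 between the JZL184 and SAP groups (adjusted p = 0.864). The last value had no stable direction, since it was -0.51 under limma-voom.

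Among the receptors, Il6r encodes the chain that binds IL-6 itself. It was at 0.82, 0.70 and 1.12 FPKM in the control libraries and at 0.86, 1.33, 1.19 and 1.29 FPKM in the SAP libraries. In the JZL184 libraries it was at 2.63, 1.84, 3.40 and 2.00 FPKM. The control and SAP libraries overlapped, and every JZL184 library was above every library of both other groups. The log2 fold change between the JZL184 and SAP groups was 1.21 ± 0.29 (edgeR adjusted p = 0.0909), with p = 0.0286 in the exact permutation test. It was 1.35 ± 0.34 between the JZL184 and control groups (adjusted p = 0.0694). Between the SAP and control groups it was 0.17 ± 0.36 (adjusted p = 0.812), and it turned to -0.08 with gene length offsets.

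Il6st, the shared signaling chain of the family, was the most abundant of the receptors in each group. It was at 3.37, 3.30 and 3.31 FPKM in the control libraries. It reached 10.98, 12.96, 6.04 and 4.80 FPKM in the SAP libraries and 9.05, 14.49, 17.34 and 14.84 FPKM in the JZL184 libraries. Every library with pancreatitis was above the controls, SAP libraries 1 and 2 were above SAP libraries 3 and 4, and the SAP and JZL184 groups overlapped. Il6st rose in the JZL184 group relative to controls by 2.04 ± 0.36 log2 units (adjusted p = 0.0357). With gene length offsets this difference was 1.78 and its adjusted p 0.0567, so the call was lost. The log2 fold change was 1.18 ± 0.42 between the SAP and control groups (adjusted p = 0.459) and 0.89 ± 0.34 between the JZL184 and SAP groups (adjusted p = 0.183). Without SAP libraries 1 and 2 these values were 0.63 ± 0.24 and 1.43 ± 0.34.

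Osmr encodes the oncostatin M receptor chain. It was at 0.16, 0.17 and 0.40 FPKM in the control libraries, at 3.72, 4.05, 1.20 and 0.63 FPKM in the SAP libraries, and at 2.99, 2.29, 3.02 and 3.96 FPKM in the JZL184 libraries. The 4 JZL184 libraries lay close together, while the SAP group split into a high pair (libraries 1 and 2) and a low pair (libraries 3 and 4). Osmr rose in the JZL184 group relative to controls, by 3.44 ± 0.47 log2 units or 10.8-fold (adjusted p = 0.018). It differed by 2.90 ± 0.84 between the SAP and control groups (adjusted p = 0.459) and 0.58 ± 0.49 between the JZL184 and SAP groups (adjusted p = 0.494). Without SAP libraries 1 and 2, the first was 1.66 ± 0.48 and the second 1.81 ± 0.37, with an adjusted p of 0.171. The ratio of Osmr to Il6st FPKM was 0.047 to 0.121 in the control libraries, 0.131 to 0.339 in the SAP libraries and 0.158 to 0.33 in the JZL184 libraries.

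Lifr, the neighbour of Osmr on chromosome 2, encodes the receptor chain for leukemia inhibitory factor. It was at 0.14, 0.10 and 0.27 FPKM in the control libraries, at 0.54, 1.63, 0.28 and 0.34 FPKM in the SAP libraries and at 0.42, 0.51, 0.55 and 0.58 FPKM in the JZL184 libraries. SAP library 2 was far above all others. Log2 differences were 1.65 ± 0.77 between the SAP and control groups (adjusted p = 0.459), 1.40 ± 0.43 between the JZL184 and control groups (adjusted p = 0.0965), and -0.21 ± 0.50 between the JZL184 and SAP groups (adjusted p = 0.825). Without SAP libraries 1 and 2, the first was 0.63 ± 0.42 and the last turned to 0.80 ± 0.33. Without SAP library 2 alone, the first was 0.87 ± 0.50.

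Stat3, the transcription factor at the end of the pathway, was at 6.72, 6.52 and 7.90 FPKM in the control libraries. In the SAP libraries it was at 35.88, 32.00, 9.33 and 7.75 FPKM, and in the JZL184 libraries at 14.96, 8.14, 12.37 and 18.88 FPKM. SAP libraries 1 and 2 were far above every other library, and SAP library 4 lay within the control range. None of its comparisons was called. Log2 differences were 1.33 ± 0.64 between the SAP and control groups (adjusted p = 0.459) and 0.86 ± 0.35 between the JZL184 and control groups (adjusted p = 0.164). Between the JZL184 and SAP groups it was -0.43 ± 0.47 (adjusted p = 0.595), and without SAP libraries 1 and 2 it was 0.72 ± 0.34. Without these libraries the difference between the SAP and control groups was 0.17 ± 0.24.

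Socs3, the feedback inhibitor, was the most abundant of the 10 genes by mean FPKM in every group. It was at 12.75, 13.13 and 19.21 FPKM in the control libraries and at 44.17, 13.96, 22.35 and 25.46 FPKM in the SAP libraries. In the JZL184 libraries it was at 117.68, 111.36, 123.70 and 172.71 FPKM. The control and SAP libraries overlapped, and the lowest JZL184 library was above the highest of all other libraries. Socs3 rose in the JZL184 group relative to controls by 3.01 ± 0.37 log2 units, or 8.05-fold (adjusted p = 0.0149). Between the SAP and control groups the log2 fold change was 0.56 ± 0.46 (adjusted p = 0.549). Between the JZL184 and SAP groups it was 2.48 ± 0.37 with an unadjusted p of 5.31e-05. Its adjusted p of 0.0604 was the smallest among the 15308 genes tested, a value that other genes shared. The exact permutation test gave p = 0.0286. Socs3 was called in this comparison by DESeq2 (adjusted p = 3.39e-07) and by limma-voom (0.0205), and over 19 alternatives its log2 fold change ranged from 2.26 to 2.78 and its adjusted p from 3.39e-07 to 0.191.

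The balance of Socs3 and Stat3 RNA differed between libraries. The ratio of Socs3 to Stat3 FPKM was 1.90, 2.01 and 2.43 in the control libraries. It was 1.23, 0.436, 2.40 and 3.29 in SAP libraries 1 to 4 and 7.87, 13.7, 10.0 and 9.15 in JZL184 libraries 1 to 4. The lowest ratio was thus in SAP library 2, which had the second-highest Stat3 level and a Socs3 level near that of the controls. Every JZL184 ratio was above every other. This ratio was chosen after the values of both genes were seen and is given as a description.

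**Figure D2:**
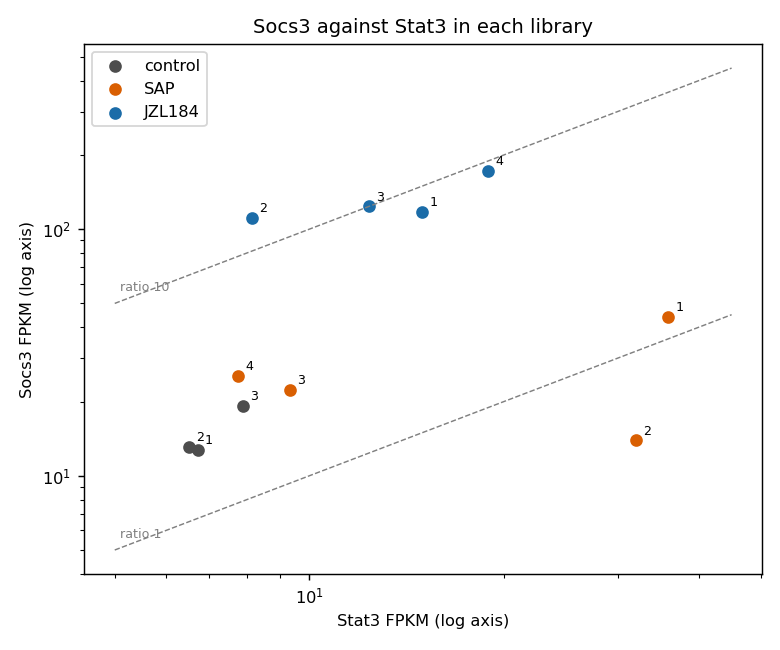
Socs3 FPKM against Stat3 FPKM in each of the 11 libraries (both axes logarithmic), with library numbers and with dashed lines at ratios of 1 and 10. The JZL184 libraries lie near a ratio of 10 (7.87 to 13.7), the control libraries near 2 (1.90 to 2.43), and SAP libraries 1 and 2 near or below 1 (1.23 and 0.436).

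In the comparison of the SAP and control groups, which asks what pancreatitis does to the ileum, edgeR called 0 of the 10 genes higher, as it called 0.0% of all 16029 genes tested. Il6 and Il11 enter the counts that follow as a description, since they passed the filter here only through the SAP libraries. At an unadjusted p below 0.05, 3 of the 10 (Il6, Osmr and Il6st) were higher, beside 5.69% of all genes. DESeq2 called 2 of the 10 (Il6 and Osmr), beside 0.86% of all genes. In normalized counts, 6 of the 10 lay above the control samples without overlap, beside 11.3% of all genes. Those were Il6, Lif, Osm, Il6st, Osmr and Stat3, of which Stat3 overlapped in FPKM. All 10 log2 fold changes were above 0, with a median of 1.26 against 0.06 over all genes.

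The comparison of the JZL184 and SAP groups asks what MAGL inhibition adds in rats with pancreatitis. Here edgeR called 0 of the 10 higher and 0.0% of all 15308 genes. At an unadjusted p below 0.05, 6 of the 10 (Il6, Il11, Lif, Il6r, Il6st and Socs3) were higher, beside 10.3% of all genes. DESeq2 called 3 of the 10 (Il6, Il6r and Socs3), beside 3.57% of all genes, and limma-voom called Il6r and Socs3, beside 2.18% of all genes. Normalized counts of 4 of the 10 (Il6, Il11, Il6r and Socs3) lay above the SAP samples without overlap, beside 6.23% of all genes. The median log2 fold change was 0.89 against -0.05 over all genes. Mgll, which encodes the enzyme that JZL184 inhibits, differed by 0.44 (adjusted p = 0.625), and the compound acts on the enzyme and not on its RNA.

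In the comparison of the JZL184 and control groups, edgeR called 4 of the 10 higher, beside 1.02% of all 15916 genes. Il6, which is among the 4, and Il11 enter these counts as a description, since they passed the filter here only through the JZL184 libraries. At an unadjusted p below 0.05, 9 of the 10 (all but Osm) were higher, beside 13.8% of all genes. DESeq2 called 8 of the 10, beside 5.80% of all genes, leaving out Stat3 and Osm. Normalized counts of 9 of the 10 (all but Osm) lay above the control samples without overlap, beside 18.9% of all genes. The median log2 fold change was 1.95 against 0.08 over all genes. The 4 calls rested on few samples, since 0 were made without control libraries 1 and 2, without control library 3, or without JZL184 library 2. Without JZL184 library 4, only Osmr and Socs3 were called. The exact permutation test cannot go below p = 0.0667 with 4 against 2 samples, and it gave that value for Il6st, Osmr, Lifr and Socs3 and 0.133 for Il6. All comparisons share samples in pairs, so they are not independent of each other.

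**Figure D3:**
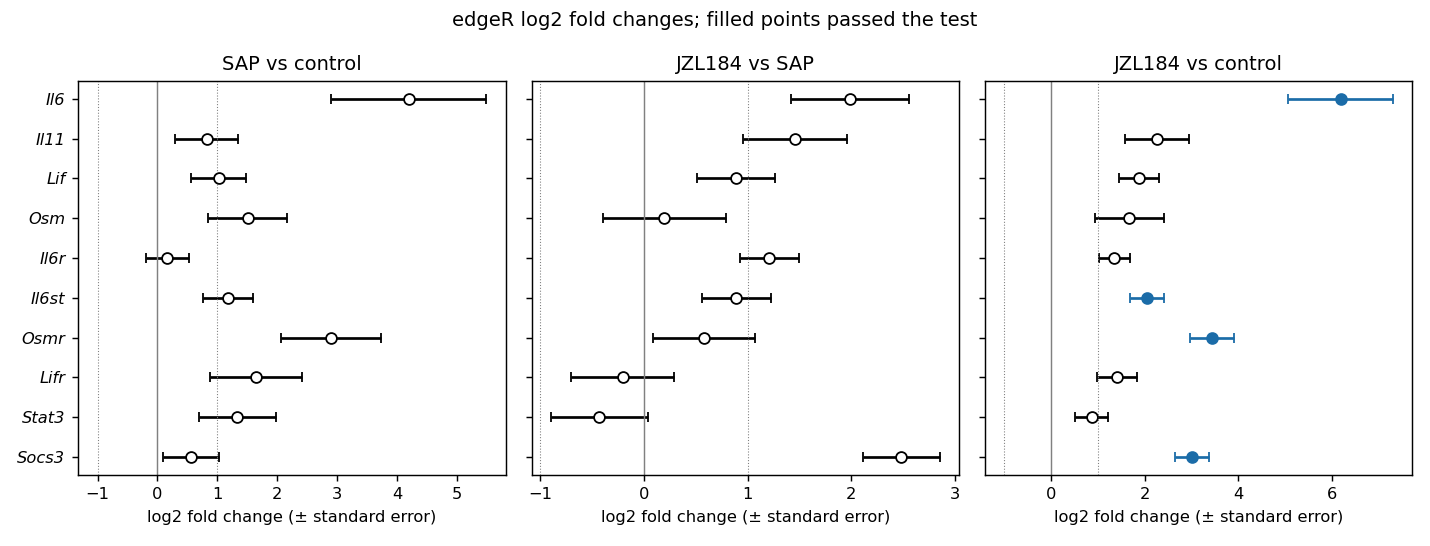
edgeR log2 fold changes of the 10 genes (points) with standard errors (bars) in each comparison, with dotted lines at a 2-fold change. Filled points passed the test: Il6, Il6st, Osmr and Socs3 in the JZL184 group relative to controls (2.04 to 6.18), and none in the other comparisons. Against controls, the points of Il6 and Il11 are a description, since both genes passed the filter on low counts only through the libraries with pancreatitis.

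Levels between genes were compared in FPKM, which corrects for gene length. In the control group, Socs3 (16.1 ± 4.43 FPKM, SD, n = 2) stood above Stat3 (7.26 ± 0.905), Il6st (3.32 ± 0.018) and Il6r (0.94 ± 0.255), and none of these overlapped with the next. The other 6 genes lay between 0.103 and 0.31 FPKM on average, and each overlapped with its neighbour in the order. In the SAP group, Socs3 (26.5 ± 12.8 FPKM, n = 4), Stat3 (21.2 ± 14.8) and Il6st (8.70 ± 3.90) overlapped in turn and were followed by Osmr (2.40 ± 1.74) without overlap. In the JZL184 group, Socs3 (131 ± 28.0 FPKM, n = 4) was clear of Il6st (13.9 ± 3.49), and the others followed with overlap between each pair of neighbours. Il6 was the ninth in the control group (0.105 ± 0.149 FPKM), the fifth in the SAP group (1.81 ± 0.961) and the fourth in the JZL184 group (6.75 ± 3.59). With read-derived gene lengths of 1.15 kb (Il6) to 12.9 kb (Lifr), the number of reads per library ranged from 0 to 375 for Il6 and from 1058 to 14269 for Socs3.

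**Figure D4:**
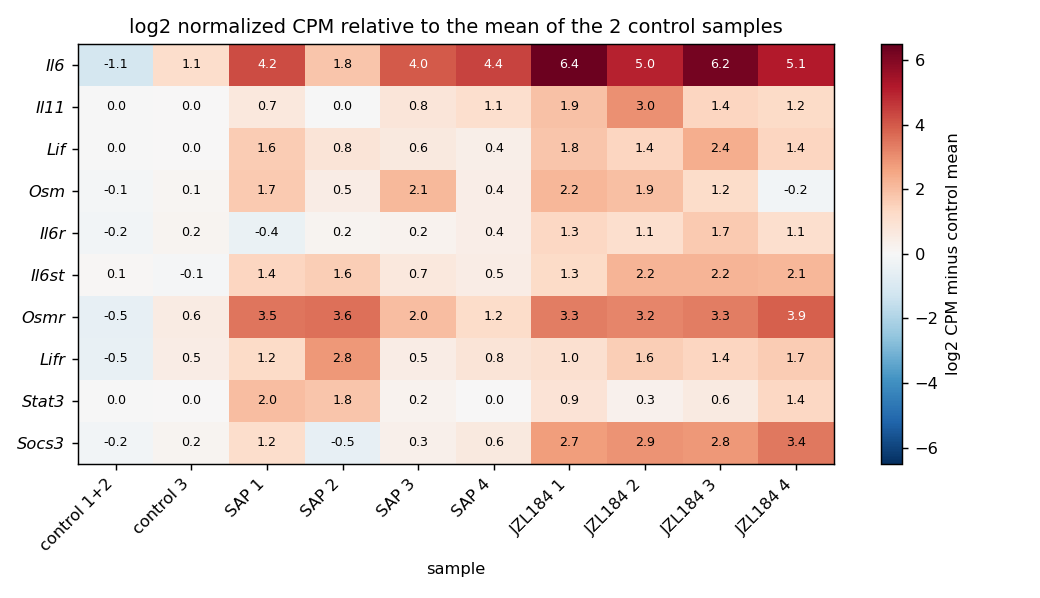
log2 CPM of each gene in each of the 10 samples, after TMM normalization, minus the mean of both control samples (control 1+2 is the sum of libraries 1 and 2). Il6 is highest in JZL184 libraries 1 and 3 (6.37 and 6.20), Osmr is between 1.20 and 3.88 in all samples with pancreatitis, and Stat3 is highest in SAP libraries 1 and 2 (1.99 and 1.80).

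The other genes of the pathway were examined in 4 lists. Of 11 other ligands and receptors of the family, 8 had enough reads for a test in the first pair of comparisons and 9 in the last. The one called was Ebi3, a subunit of IL-27 and IL-35, which rose in the JZL184 group relative to controls by 4.66 ± 0.96 log2 units (edgeR adjusted p = 0.0489), a call lost without either control sample and without JZL184 library 2 or 4. DESeq2 called 1 of the list higher between the JZL184 and SAP groups and 2 between the JZL184 and control groups. Ebi3 held 1, 3 and 1 reads in the control libraries, so against controls it passed the filter only through the libraries with pancreatitis. It was also 2.98 ± 0.96 higher in the SAP group (adjusted p = 0.459). Ebi3 differed by 1.72 ± 0.67 between the JZL184 and SAP groups (adjusted p = 0.19). In that comparison Cntfr, the receptor of ciliary neurotrophic factor, differed by 1.70 ± 0.58 and Clcf1, another ligand of that receptor, by 1.15 ± 0.40 (adjusted p = 0.159 and 0.165).

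None of the 10 JAK kinases and other STATs was called by edgeR in any comparison, while DESeq2 called 1 higher and 1 lower between the JZL184 and SAP groups and 2 lower between the JZL184 and control groups. Between the JZL184 and SAP groups, 4 were lower and 2 higher at an unadjusted p below 0.05. Stat2, a factor of the interferon response, differed by -0.95 ± 0.32 (adjusted p = 0.16) and the kinase gene Tyk2 by -0.79 ± 0.28 (adjusted p = 0.167). Stat5a and Stat5b, which act below growth hormone and cytokines such as IL-2, differed by 1.22 ± 0.35 and 0.72 ± 0.26 (adjusted p = 0.119 and 0.171). The median of the list was -0.41, against 0.89 for the 10 genes described above and -0.05 for all genes.

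Of 16 other negative regulators of JAK-STAT signaling, edgeR called 0 in any comparison, while DESeq2 called 3 higher between the JZL184 and SAP groups and 1 higher between the JZL184 and control groups. Between the JZL184 and SAP groups, 4 were higher and 2 lower at an unadjusted p below 0.05. The 3 with the smallest p were of the same family as Socs3. They were Cish (1.35 ± 0.30, edgeR adjusted p = 0.0856), Socs2 (1.38 ± 0.34, 0.0951) and Socs1 (2.47 ± 0.62, 0.0965). Pias4 and Pias3, inhibitors that act on STATs in the nucleus, differed by -0.81 ± 0.25 and -0.67 ± 0.30 (adjusted p = 0.14 and 0.229). In the SAP group relative to controls, Cish (-0.90 ± 0.31) and Socs1 (-0.65 ± 0.44) were on the lower side (adjusted p = 0.459 and 0.491).

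Of 30 genes known to be induced by STAT3, 6 rose and 0 fell in the JZL184 group relative to controls, among 29 tested, beside 1.02% of all genes called higher. They were the iron-binding protein gene Lcn2 (6.95 ± 0.87), the protease inhibitor genes Serpina3n (5.41 ± 0.74), Timp1 (2.57 ± 0.40) and A2m (2.45 ± 0.47), the acute-phase gene Hp (4.96 ± 0.95) and the transcription factor gene Cebpd (2.61 ± 0.47), with edgeR adjusted p between 0.0154 and 0.0436. Hp, A2m and Cebpd were named after their values were seen. The count was 0 without control libraries 1 and 2 and 0 without control library 3. It was 1 without JZL184 library 2 and 2 without JZL184 library 4, beside 0.0884% and 0.253% of all genes called higher. It was 9 (with 1 lower) without JZL184 library 1 and 10 without JZL184 library 3, beside 5.47% and 2.71%. The median log2 fold change was 1.14. None of the list was called by edgeR in the other comparisons. There, DESeq2 called 4 higher between the SAP and control groups, beside 0.86% of all genes. It called 9 higher, beside 3.57% of all genes, and 1 lower between the JZL184 and SAP groups. Without JZL184 library 1, edgeR called 4 higher and 1 lower between the JZL184 and SAP groups, beside 2.22% of all genes called higher. Between the SAP and control groups, 8 were higher and 1 lower at an unadjusted p below 0.05. Serpina3n differed by 6.26 ± 0.75 (adjusted p = 0.121), Lcn2 by 4.51 ± 0.64 (0.15) and the fibrinogen gene Fga by 4.64 ± 1.06 (0.449), while the median was 0.20. Without SAP libraries 1 and 2, edgeR called 5 of 27 higher in this comparison, beside 0.332% of all genes. Between the JZL184 and SAP groups, 22 of 27 tested were above 0, and at an unadjusted p below 0.05 14 were higher and 1, the cyclin gene Ccnd1, was lower (-1.23 ± 0.33, adjusted p = 0.109). The 3 with the smallest p were Bcl3 (1.80 ± 0.37, adjusted p = 0.0851), a regulator of NF-kB, the adhesion molecule gene Icam1 (1.55 ± 0.34, 0.0851) and Lcn2 (2.47 ± 0.55, 0.0856). Not all were above 0, and Serpina3n differed by -0.81 ± 0.47 (adjusted p = 0.328).

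**Figure D5:**
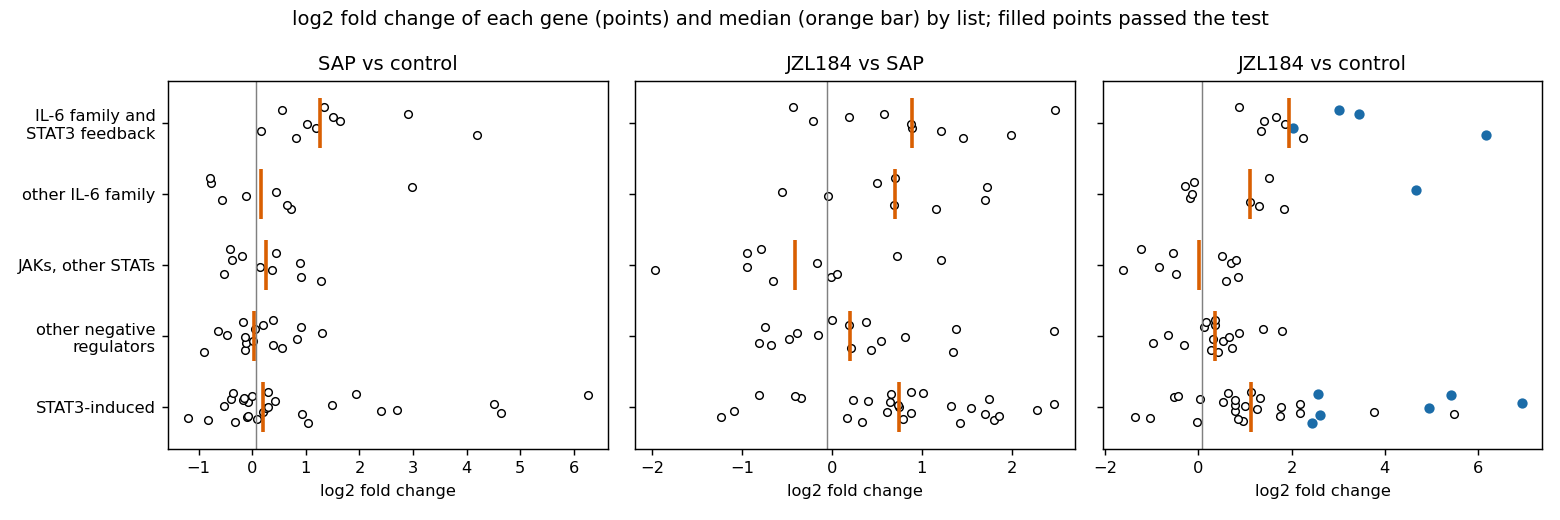
edgeR log2 fold changes of each tested gene (points) in the 10 genes described above and in the other pathway lists, with the median of each list (orange bar) and of all genes (grey line), in each comparison. Filled points passed the test. The median of the STAT3-induced genes was 0.20, 0.74 and 1.14 from left to right, and that of the JAK kinases and other STATs was 0.26, -0.41 and 0.01.

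Markers of cells that make or answer these cytokines also varied between libraries, and their part in the results was not tested. Summed FPKM can rest mainly on few abundant markers, so a sum does not stand for its whole list. In control library 1, Ncf1 gave 11.14 of the neutrophil sum of 12.57 and Lyz2 1204 of the macrophage sum of 1555. Fabp6 gave 21769 of the enterocyte sum of 40600 (all 3 chosen after their values were seen). The summed FPKM of 10 neutrophil markers was 12.57 to 13.17 in the control libraries, 19.07 to 91.11 in the SAP libraries and 18.25 to 267.26 in the JZL184 libraries. edgeR called 0 of them in any comparison, with 6, 0 and 3 higher and 1, 0 and 1 lower at an unadjusted p below 0.05 and 4, 0 and 3 called higher by DESeq2 in the SAP compared with control, JZL184 compared with SAP and JZL184 compared with control groups. Their defining markers S100a8 and S100a9 were at most 0.63 and 0.72 FPKM in the control libraries and at least 3.56 and 2.49 in all others, and Cxcr2 and Elane were listed at 0 in every control library. The marker on the lower side was Mpo (-1.36 and -1.38 relative to controls in the SAP and JZL184 groups), chosen after its values were seen. The highest sum was in JZL184 library 2, where Il11 was also highest but Il6 lowest of its group. The 10 macrophage and monocyte markers summed to 1394 to 1561 FPKM in the control libraries, 809 to 2502 in the SAP libraries and 510 to 1332 in the JZL184 libraries, and 1 of them, Cd163, was called higher in the JZL184 group relative to controls (chosen after its value was seen). At an unadjusted p below 0.05, 2 were higher and 2 lower in that comparison, 3 of 10 were above 0, the median log2 fold change was -0.24 and DESeq2 called 1 higher and 1 lower. The defining marker Cd68 differed by 0.28 and Csf1r by -1.42 (adjusted p = 0.741 and 0.0631), and both were present in every library. The 10 fibroblast markers summed to 107 to 123, 95.76 to 249 and 65.49 to 133 FPKM in the same order, and the defining marker Col1a1 fell by 2.49 in log2 units in the JZL184 group relative to controls (adjusted p = 0.0462). In the same comparison Pdpn, chosen after its value was seen, rose by 1.83 (adjusted p = 0.0452). There, 3 of the 10 fibroblast markers were above 0, and 1 was higher and 4 lower at an unadjusted p below 0.05. DESeq2 called 1 higher and 2 lower. Between the JZL184 and SAP groups, 1 of these 10 was above 0 and DESeq2 called 5 lower. The 10 endothelial markers summed to 31.68 to 34, 35.87 to 50.91 and 35.88 to 49.46 FPKM. Of these, Sele, which encodes E-selectin and was chosen after its values were seen, was called higher in the JZL184 group relative to controls (5.68, adjusted p = 0.0239). Sele held 3, 4 and 3 reads in the control libraries, so it passed the filter there only through the JZL184 libraries. That call is therefore a description. Sele differed by 3.43 between the JZL184 and SAP groups (adjusted p = 0.0692). Of the 10 endothelial markers, 8 were above 0 in the first of these comparisons (median 0.38) and 4 in the second (median -0.06). In the first, DESeq2 called 2 higher and 1 lower. The defining markers Pecam1 and Cdh5 differed by 0.765 and 0.476 in the first and by 0.60 and -0.41 in the second. The T cell markers, 9 of 10 found, summed to 147 to 170, 54.85 to 166 and 100 to 132 FPKM. In the JZL184 group relative to controls, 1 of these 9 was above 0. At an unadjusted edgeR p below 0.05, 5 were lower and 0 higher, and DESeq2 called 4 lower. The enterocyte markers, 9 of 10 found, summed to 40600 to 40632, 10680 to 25091 and 4911 to 20877 FPKM, and were lowest in JZL184 library 3, which had the highest Il6r, Il6st and Lif levels of its group. In the JZL184 group relative to controls, 2 of the 9 were above 0. There the defining markers Epcam and Vil1 differed by -0.23 and -1.58 (edgeR adjusted p = 0.641 and 0.094). The 10 smooth muscle markers summed to 2231 to 2570, 963 to 2245 and 460 to 2715 FPKM, and 1 of them, Smtn (chosen after its value was seen), was called lower in the JZL184 group relative to controls (-1.84, adjusted p = 0.0461). The exocrine pancreas markers, 8 of 10 found, reached at most 12.21 FPKM, and their defining markers Prss1 and Prss2 were at 0 in all SAP and JZL184 libraries.

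The genes whose log2 normalized counts most resembled those of Il6 over the 10 samples, among 11270 genes with a mean of at least 100 reads, were Rgs1 (Pearson r = 0.973, Spearman rho = 0.939), Ptn (0.942 and 0.903) and Dclre1c (0.940 and 0.988). For Socs3 they were Irak1 (0.966 and 0.927), Dll1 (0.964 and 0.903) and Rc3h2 (0.959 and 0.964). These values describe likeness over samples that fall into 3 groups, and genes of a library share its depth and its tissue make-up.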

How the data were processed

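Stranded mRNA libraries, 11 in all, were made from rat ileum and sequenced. The authors trimmed reads with FASTX-Toolkit 0.0.13, aligned them to mRatBN7.2 with HISAT2 and deposited a count of uniquely aligned reads per gene, not normalized. The authors also deposited FPKM, to 2 decimals. The counting tool was, like the annotation, not given in the sources used here. Labels gave the groups, although they name a control plasmid for the control group and, in the titles, oil for the SAP group.

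The 10 genes, the gene lists and the tests were chosen with earlier results of these data known. Groups were compared in pairs over all genes with edgeR 4.0.16 (R 4.3.3; TMM; default filter, minimum count 10; Benjamini-Hochberg), with control libraries 1 and 2 summed. The fit was tested on simulated data. FPKM of single genes was compared with two-sided exact permutation tests. Alternatives used DESeq2 1.42.0, limma-voom 3.58.1 with quality weights, other filters and scalings, a replicate block, separate control libraries, and fewer libraries. All 10 genes were named in each comparison, with the 3 genes of smallest p per direction considered in each other pathway list. One gene of these lists is not reported here. Whether rats with the same number were paired was checked by the correlation of their deviations from the group means, which ranged from -0.484 to 0.131 between the SAP and JZL184 groups, so numbers were not taken as pairs. P-values measure the spread between these libraries, and read floors cover counting error only. Splicing was not analysed here.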

Additional observations from a re-analysis of the deposited data

How the results depend on the processing

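Of 558 recomputed values of single genes under alternatives, 487 kept their direction and their side of the threshold. Of the others, 41 passed it only under the alternative, 15 lost it and 15 changed sign. Most of these values are of genes not called in the main fit, which had no call to lose. Of the 4 calls in the JZL184 compared with control groups, Il6 kept its call in 13 of 17 alternatives and Il6st in 13 of 18. Osmr and Socs3 each kept theirs in 15 of 18. These tallies do not measure stability. The alternative without a fold change threshold could not lose a call, and several others counted control libraries 1 and 2 as separate samples. For Il6 the tally is a description, as its call is. Of the 10 genes, DESeq2 called 2, 3 and 8 in the SAP compared with control, JZL184 compared with SAP and JZL184 compared with control groups, where edgeR called 0, 0 and 4. Over all genes, DESeq2 called 0.86%, 3.57% and 5.8% higher and edgeR 0.0%, 0.0% and 1.02%, so the background moved with the tool. DESeq2 with control libraries 1 and 2 separate called 4 in the first and 9 in the last (all genes: 6.39% and 10.8%). In the JZL184 compared with SAP groups, limma-voom called 2 (2.18% of all genes), and no filter on low counts, all 3 groups in 1 fit and gene length offsets each called 1 (0.0829%, 0.785% and 0.152%). In the JZL184 compared with control groups, limma-voom called 7 (8.48%) and edgeR with separate control libraries 8 (10.1%), and the replicate block and the block with gene length offsets, both with separate control libraries, each called 7 (5.02% and 3.93%). The replicate numbers did not pair the samples, so a call lost or won under the block is only a change of fit. Leaving out 1 library gave 0 to 1 calls in the JZL184 compared with SAP groups (0.0% to 2.22% of all genes) and 0 to 6 in the JZL184 compared with control groups (0.0% to 5.47%).

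Some small differences changed sign. For Il6r between the SAP and control groups (0.17), gene length offsets gave -0.0837, the replicate block with these offsets and separate control libraries -0.28, and leaving out 1 library -0.038 to 0.40. For Osm between the JZL184 and SAP groups (0.19), limma-voom gave -0.51, leaving out 1 library -0.12 to 0.56, and the difference in log2(FPKM + 0.1) was -0.0122. For Lifr between these groups (-0.21), limma-voom gave 0.37, gene length offsets 0.19, the replicate block 0.10, the block with offsets 0.30, omission of SAP libraries 1 and 2 0.80, and leaving out 1 library -0.46 to 0.58. For Stat3 (-0.43), limma-voom gave 0.0689 and omission of SAP libraries 1 and 2 0.72. The cause was not tested. Il6 could not be fitted with at least 10 reads in every library. With 2 control samples, even large differences from the control group could go uncalled, so an absent call is not an absent difference. Between the SAP and control groups, Osmr differed by 2.90 log2 units (edgeR adjusted p = 0.459) and Serpina3n by 6.26 (0.121). Il6, Il11 and Osm rest on few reads.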
